A study of Homo sapiens with 4 samples.

Results

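A set of 7 genes of methylglyoxal and aldehyde detoxification was followed in U251 cells after knockdown of PRMT3, a protein arginine methyltransferase. They are GLO1, HAGH, PARK7, AKR1A1, AKR1B1, ALDH2 and ALDH7A1, 7 of the 15575 genes in the count table, and all 7 passed the filter on low counts. GLO1 was picked because its decrease is among the largest in this same comparison, so its change is given as a description with no test. The other 6 genes were chosen by their function, with earlier results of these data known. U251 is an established human glioblastoma (GBM) cell line. RNA-seq libraries were made from cells that received lentiviral control shRNA, labelled pGreen (Ctrl, 2 libraries), or PRMT3 shRNA (PRMT3-KD, 2 libraries), taken at 72 h. The study does not name the shRNA of these libraries, and every library comes from 1 cell line with a lentivirus, so untransduced cells are not part of the comparison. The labels do not say that the libraries of a group are separate cultures. The p-values therefore measure only the spread between these libraries, which may be technical.

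Methylglyoxal is a reactive dicarbonyl that forms mainly from the triose phosphates of glycolysis and modifies proteins and DNA. It reacts with glutathione without an enzyme, glyoxalase I (GLO1) turns the adduct into S-lactoylglutathione, and glyoxalase II (HAGH) hydrolyses this to D-lactate and frees the glutathione. Aldo-keto reductases and aldehyde dehydrogenases remove methylglyoxal and other aldehydes by reduction or oxidation. Rapidly glycolytic cells, tumour cells among them, are known to depend on this clearance.

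Total counts lay between 24804250 and 29756313 per library, and values are given as CPM, counts relative to the library total after TMM scaling, a correction for differences in library composition. PRMT3, the targeted gene, had 535 counts in each Ctrl library and 77 and 45 counts in PRMT3-KD libraries 1 and 2, a log2 fold change of -3.08. The difference between the Ctrl libraries was close to counting error, with a ratio of chi-square to degrees of freedom of 1.42 over 13709 genes. The same ratio was 63.6 between the PRMT3-KD libraries over 13670 genes, so each gene is given in both. VIM, NES, CD44, SOX2, GFAP, S100B and FABP7 were all detected, 7 of the 8 glioma markers listed, and 0 of the 7 passed the threshold defined below in edgeR, with 2 at an unadjusted p under 0.05 (37.6% of all genes tested). These 2 were GFAP and FABP7. GFAP, the astrocyte filament, had 13.1 and 14.3 CPM in Ctrl against 1.26 and 5.39 CPM in PRMT3-KD (adjusted p = 0.0958, edgeR). FABP7 had 34.7 and 33.5 CPM in Ctrl against 14.7 and 23.9 CPM in PRMT3-KD (adjusted p = 0.0882, edgeR). NES had 786 and 779 CPM in Ctrl, with PRMT3-KD libraries 1 and 2 on opposite sides at 459 and 826 CPM. The part of these markers in the results was not tested. Of the 9 markers of other cell types listed, the 5 in the table summed to 24.8 and 26.6 CPM in Ctrl and to 31.4 and 30.8 CPM in PRMT3-KD libraries 1 and 2. Without CD68 the sum was between 0.758 and 1.77 CPM. The epithelial marker CDH1 had 0 counts in both Ctrl libraries and 4 and 1 counts in PRMT3-KD libraries 1 and 2. MBP had 3 counts in each Ctrl library and 13 and 6 in PRMT3-KD. In bulk RNA, fewer cells of a kind and less RNA per cell cannot be told apart.

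The genes were compared with edgeR's quasi-likelihood test over 13172 genes, with p-values adjusted by the Benjamini-Hochberg method. To pass the threshold, a gene had to reach an adjusted p under 0.05 and differ by over 1.5-fold. Over all genes, 1441 passed (10.9%), with 786 lower (5.97%) and 655 higher (4.97%) in PRMT3-KD cells, and the median log2 fold change was 0.0055, with 49.5% of genes below 0. At an unadjusted p under 0.05 there were 4950 genes (37.6%), and DESeq2 passed 1834 genes (13.9%). These calls by edgeR need both Ctrl libraries. With Ctrl library 1 or Ctrl library 2 left out, 0 genes passed in edgeR, with 1842 and 1868 genes at an unadjusted p under 0.05. The smallest p an exact two-sided permutation test allows with 2 libraries in each group is 0.333.

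The 3' UTR of GLO1 holds 2 copies of CAGCTCA, a sequence of 7 bases that was chosen from an earlier scan of these same fold changes, so its presence is no independent evidence about GLO1. The copies are shown because GLO1 is the 1 member with more than a single copy. Both lie on the minus strand of chromosome 6 in GRCh37, 741 and 1067 bases after the stop codon, with the sequence itself at 38644324 to 38644330 and at 38643998 to 38644004. Of the other members, ALDH2 alone has a copy, 3963 bases after the stop codon on the plus strand of chromosome 12 at 112251342 to 112251348. Each window is written 5' to 3' on the strand of the transcript with 10 bases on each side, and capitals mark the 7 bases searched, on the transcript strand only.
GLO1 first copy, chr6:38644314-38644340: gggcatcaatCAGCTCAactcaagatt
GLO1 second copy, chr6:38643988-38644014: tatcagaaatCAGCTCAgtggtcttcc
ALDH2 copy, chr12:112251332-112251358: ctattcacgaCAGCTCAgagatggaat

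HAGH, PARK7, AKR1A1, AKR1B1 and ALDH7A1 have 0 copies. Of the 12619 tested genes with a 3' UTR of at least 50 bases, 2214 (17.5%) have at least 1 copy and 437 (3.46%) have 2 or more. Among the 1679 genes with a 3' UTR of 0.8 to 1.2 times the length of that of GLO1 (1370 bases), 233 (13.9%) have at least 1 copy and 23 (1.37%) have 2 or more. This window of lengths was narrowed slightly after values were seen. The sequence and GLO1 were both picked from the same fold changes, so these shares are no test of GLO1. ALDH2, whose annotated 3' UTR of 7957 bases is the longest of the 7, had a log2 fold change of -0.02.

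GLO1 (ENSG00000124767) catalyses the first step of the glyoxalase pathway and lies on chromosome 6 of GRCh37 from 38643701 to 38670921, with 6 exons. It had 5066 and 5053 counts in Ctrl libraries 1 and 2 and 827 and 634 counts in PRMT3-KD libraries 1 and 2. These were 183 and 184 CPM in Ctrl and 32.6 and 22.3 CPM in PRMT3-KD, so both PRMT3-KD libraries lay far below both Ctrl libraries. The means were 183 ± 0.611 and 27.4 ± 7.24 CPM (SD, n = 2 each), which left GLO1 at 14.96% of its Ctrl level. The log2 fold change was -2.74 (standard error 0.202), and PRMT3-KD libraries 1 and 2 on their own gave -2.49 and -3.04.

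The PRMT3-KD libraries differed from each other by -0.545 on the log2 scale (library 2 minus library 1, counting error 0.076), which is several times the counting error but small beside the change itself. The Ctrl libraries differed by 0.0068 (counting error 0.029). Among all genes tested, GLO1 moved from the 92.0 percentile of expression in Ctrl to the 49.9 percentile in PRMT3-KD cells. The annotation holds 0 pseudogenes named after GLO1, and pseudogenes under other names were not searched. The exons of GLO1 overlap no other gene. Of the 9459 genes that averaged at least 10 CPM, the values that chose GLO1 place it at rank 2 from the largest decrease, after PRMT3 at -3.08 and before E2F2 at -2.43 and IL10RB at -2.37.

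The nearest tested genes on chromosome 6, looked up after the GLO1 values were seen, are BTBD9 and SAYSD1. BTBD9 had 25.7 and 26.5 CPM in Ctrl and 18.9 and 22.04 CPM in PRMT3-KD, a log2 fold change of -0.35 (adjusted p = 0.104, edgeR). SAYSD1 had a log2 fold change of -0.08 (adjusted p = 0.795, edgeR), and neither neighbour passed the threshold.

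**Figure D1:**
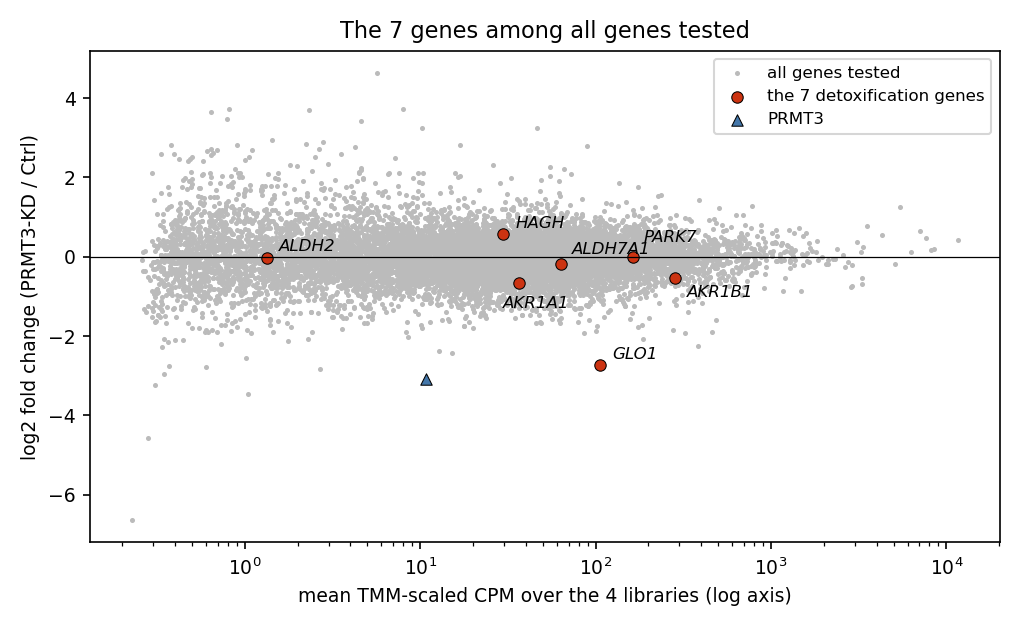
The log2 fold change between PRMT3-KD and Ctrl (vertical axis) is plotted against mean TMM-scaled CPM over the 4 libraries (horizontal axis, log scale) for the 13172 genes tested. The 7 detoxification genes are circles and PRMT3 is a triangle; GLO1 lies at -2.74, with PRMT3 the 1 gene of at least 10 CPM below it, and the other 6 lie between -0.67 and 0.57.

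HAGH (ENSG00000063854), glyoxalase II, carries out the step after GLO1 and lies on chromosome 16 from 1845621 to 1877158. It had 676 and 641 counts (24.4 and 23.3 CPM) in Ctrl libraries 1 and 2 and 1036 and 860 counts (40.8 and 30.3 CPM) in PRMT3-KD libraries 1 and 2. Both PRMT3-KD libraries were above both Ctrl libraries, and library 1 was higher than library 2. The means were 23.9 ± 0.774 and 35.5 ± 7.43 CPM (SD, n = 2 each), and the log2 fold change came to 0.57 with a standard error of 0.169 and an adjusted p of 0.0838 (edgeR), or 1.49-fold. HAGH did not pass the threshold. The adjusted p was 0.0330 with DESeq2 and 0.0359 with limma-voom, both at under 1.5-fold. Without PRMT3-KD library 2 the log2 fold change was 0.77, over 1.5-fold, and without PRMT3-KD library 1 it was 0.35, under 1.5-fold. With 1 PRMT3-KD library left, the fit takes its spread from the Ctrl libraries alone, so no p is given for these values. The exons of HAGH overlap those of FAHD1 on the other strand, and whether the counting used strand is not stated. FAHD1 had a log2 fold change of 0.05 (adjusted p = 0.847, edgeR).

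PARK7 (ENSG00000116288, chromosome 1 from 8014351 to 8045565) encodes DJ-1, a protein of the oxidative stress response for which a glyoxalase and deglycase activity has been described. It had 4541 and 4497 counts in Ctrl libraries 1 and 2 and 4282 and 4525 counts in PRMT3-KD libraries 1 and 2, or 164 and 163 CPM against 169 and 159 CPM. The groups overlapped, with PRMT3-KD library 1 above and library 2 below both Ctrl libraries. The means were 164 ± 0.284 and 164 ± 6.55 CPM (SD, n = 2 each), and the log2 fold change came to 0.00 with a standard error of 0.0712 and an adjusted p of 0.988 (edgeR). The annotation holds 2 pseudogenes named after PARK7, which could share its reads.

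**Figure D2:**
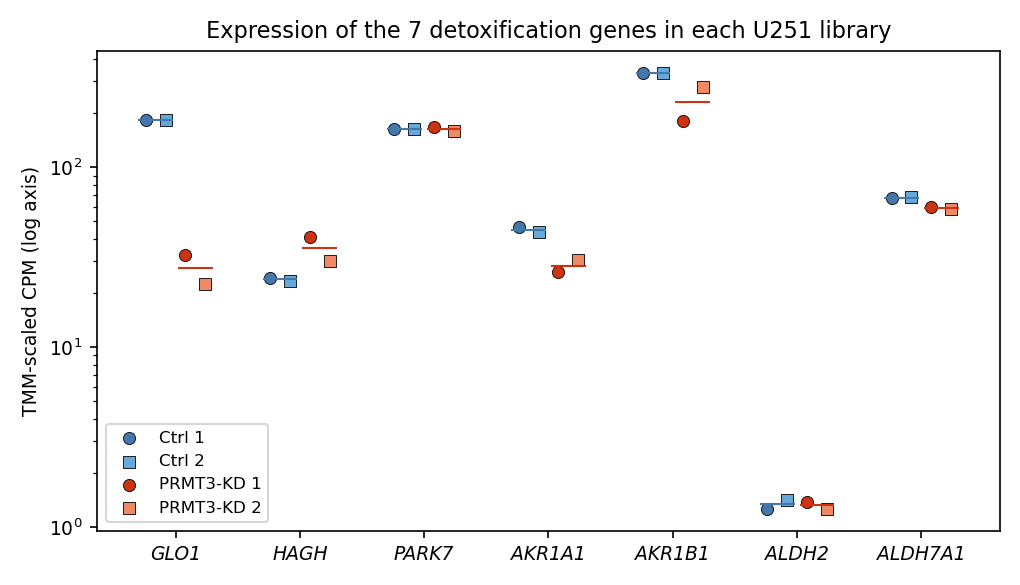
TMM-scaled CPM (vertical axis, log scale) of the 7 genes is shown in each of the 4 libraries, with circles for library 1, squares for library 2 and lines for the group means. The GLO1 means are 183 and 27.4 CPM for Ctrl and PRMT3-KD, whereas PARK7 is at 164 CPM and ALDH2 is near 1.3 CPM in both groups.

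AKR1A1 (ENSG00000117448, chromosome 1 from 46016215 to 46035721), an aldehyde reductase that uses NADPH, was the 1 gene of the 6 besides GLO1 to pass the threshold. It had 1288 and 1196 counts in Ctrl libraries 1 and 2 and 661 and 865 counts in PRMT3-KD libraries 1 and 2. These were 46.5 and 43.5 CPM in Ctrl and 26.0 and 30.4 CPM in PRMT3-KD, with no overlap. AKR1A1 fell from a mean of 45.0 ± 2.12 CPM to a mean of 28.2 ± 3.13 CPM (SD, n = 2 each), and the log2 fold change came to -0.67 with a standard error of 0.114 and an adjusted p of 0.0314 (edgeR), or 62.8% of Ctrl. The changes in PRMT3-KD libraries 1 and 2 were -0.79 and -0.56. The adjusted p was 0.313 without Ctrl library 1 and 0.247 without Ctrl library 2 (edgeR), and without PRMT3-KD library 1 the change of -0.56 was under 1.5-fold.

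AKR1B1 (ENSG00000085662, chromosome 7 from 134127108 to 134144036), aldose reductase, reduces glucose to sorbitol in the polyol pathway and also reduces methylglyoxal. It had 9315 and 9144 counts in Ctrl libraries 1 and 2 and 4570 and 7939 counts in PRMT3-KD libraries 1 and 2. These were 336 and 332 CPM in Ctrl and 179.9 and 279 CPM in PRMT3-KD. Both PRMT3-KD libraries were below both Ctrl libraries, but they differed from each other by 0.636 on the log2 scale (library 2 minus library 1, counting error 0.027). The means were 334 ± 2.66 and 229.7 ± 70.4 CPM (SD, n = 2 each). The log2 fold change came to -0.54 with a standard error of 0.222 and an adjusted p of 0.159 (edgeR), which did not pass the threshold. With DESeq2 the adjusted p was 0.0711 and with limma-voom it was 0.0256, both at under 1.5-fold. PRMT3-KD libraries 1 and 2 on their own gave -0.89 and -0.26, and without library 2 the edgeR fit gave -0.90, over 1.5-fold. Without library 1 it gave -0.26 and stayed under 1.5-fold. No p is given for these 2 fits, for the reason given for HAGH. The annotation holds 8 pseudogenes named after AKR1B1, which could share its reads.

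ALDH2 (ENSG00000111275, chromosome 12 from 112204691 to 112255336), the mitochondrial enzyme that oxidises acetaldehyde, was barely expressed in these cells. It had 35 and 39 counts in Ctrl libraries 1 and 2 and 35 and 36 counts in PRMT3-KD libraries 1 and 2, or 1.26, 1.42, 1.38 and 1.27 CPM. The groups overlapped, and the log2 fold change came to -0.02 with a standard error of 0.249 and an adjusted p of 0.963 (edgeR). Its Ctrl level was at the 9.79 percentile of the genes tested, and at this count a change of the size of the standard error was not detectable. Its exons overlap those of ENSG00000257767 on the same strand, so its reads may be shared.

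ALDH7A1 (ENSG00000164904, chromosome 5 from 125866892 to 125931054), antiquitin, oxidises the semialdehyde of lysine breakdown and aldehydes from lipid peroxidation. It had 1862 and 1887 counts in Ctrl libraries 1 and 2 and 1532 and 1671 counts in PRMT3-KD libraries 1 and 2, or 67.2, 68.6, 60.3 and 58.8 CPM. Both PRMT3-KD libraries were below both Ctrl libraries, at 87.7% of Ctrl on average. The means were 67.9 ± 0.990 and 59.6 ± 1.05 CPM (SD, n = 2 each), and the log2 fold change came to -0.19 with a standard error of 0.0717 and an adjusted p of 0.136 (edgeR), which did not pass the threshold. The annotation holds 4 pseudogenes named after ALDH7A1.

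Leaving GLO1 aside, 1 of the 6 genes passed the threshold (16.7%, against 10.9% of all genes tested), and their median log2 fold change was -0.10. The groups did not overlap for 4 of the 6 (HAGH, AKR1A1, AKR1B1 and ALDH7A1), where 8838 of the 13172 genes (67.1%) had groups that did not overlap. The first share rests on 1 gene, and the second count is close to the share over all genes. HAGH and AKR1B1 differed more between the PRMT3-KD libraries than the Ctrl libraries did, and both were farther from Ctrl in PRMT3-KD library 1. GLO1 was farther from Ctrl in library 2, so the library with the larger change was not the same for every gene.

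**Figure D3:**
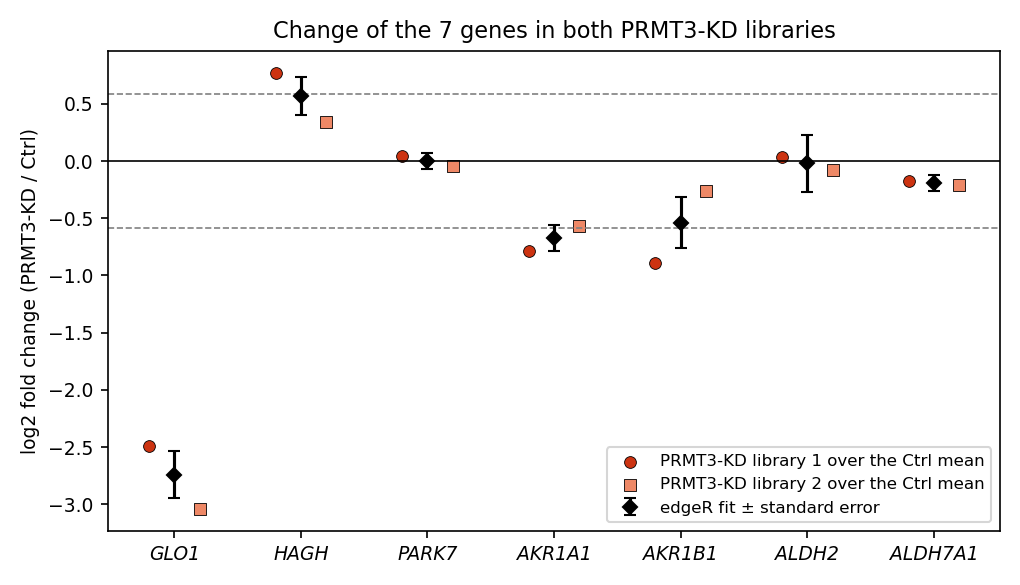
The log2 fold change of each gene is shown for PRMT3-KD library 1 (circle) and library 2 (square) against the mean of the Ctrl libraries, beside the edgeR fit with its standard error (diamond and bar). Dashed lines mark a 1.5-fold change; besides GLO1, AKR1A1 at -0.67 lies beyond them, and HAGH at 0.57 and AKR1B1 at -0.54 lie just inside.

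Per length of the canonical transcript, the genes can be ordered by level within a library. In Ctrl the order was AKR1B1 (247 and 244 CPM per kb in libraries 1 and 2), PARK7 (145.4 and 145.1), GLO1 (90.7 and 91.1), AKR1A1 (33.04 and 30.9), ALDH7A1 (14.1 and 14.4), HAGH (9.32 and 8.90) and ALDH2 (0.132 and 0.148). No neighbours in this order overlapped. In PRMT3-KD cells AKR1B1 (132 and 205 CPM per kb) and PARK7 (149.5 and 141) overlapped, AKR1A1 (18.5 and 21.6) came next, and GLO1 (16.1 and 11.1), HAGH (15.6 and 11.6) and ALDH7A1 (12.7 and 12.3) overlapped. GLO1, at rank 3 of the order in Ctrl, was thus below AKR1A1 in both PRMT3-KD libraries and no longer separated from HAGH or ALDH7A1. The level of GLO1 per kb was 9.74 and 10.2 times that of HAGH in Ctrl libraries 1 and 2, and 1.04 and 0.958 times that of HAGH in PRMT3-KD libraries 1 and 2. GLO1 was chosen for its decrease, so this ratio is a description. The value of ALDH2 per kb rests on a transcript model with a long 3' UTR (7957 of 9561 bases). The 3' UTR is also the larger part for GLO1 (1370 of 2016 bases), HAGH (1654 of 2619) and ALDH7A1 (3124 of 4765). The annotation used for counting is not given, and the order and the size of the ratio depend on these lengths.

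The 5 genes whose pattern over the 4 libraries was most like that of GLO1, by Euclidean distance of centred log2 CPM among 9458 other genes, were E2F2 (distance 0.361), PRMT3 (0.424), LMNB2 (0.486), HMGB2 (0.706) and ADAM15 (0.874). E2F2, a cell cycle transcription factor, had 25.7 CPM in both Ctrl libraries and 5.39 and 4.15 CPM in PRMT3-KD libraries 1 and 2. LMNB2, a nuclear lamin, had 639 and 634 CPM in Ctrl and 164 and 105 CPM in PRMT3-KD. None of the 5 is an enzyme of aldehyde metabolism. Since most of the GLO1 pattern is its decrease, this measure favours genes with a large decrease, and the 5 had log2 fold changes between -3.08 and -1.92.

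The wider pathway was described with 6 gene lists, which together hold 56 tested genes besides GLO1. Of these, 7 passed the threshold (12.5%, against 10.9% of all genes), 6 of them lower and 1 higher, with a median log2 fold change of -0.13. Without Ctrl library 1 or Ctrl library 2, none of them passed, as for all genes.

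In the list of the glyoxalase system and glycation repair, 8 of the listed genes besides GLO1 were tested, and 0 passed the threshold, with 3 at an unadjusted p under 0.05 (edgeR, 37.6% of all genes) and 1 past with DESeq2 (13.9% of all genes). Of the 8, 4 were below 0 and 4 above, with a median of 0.00. PARK7 was the most abundant. FN3KRP and FN3K, which encode a kinase pair of deglycation, had log2 fold changes of -0.70 (adjusted p = 0.0667, edgeR) and 0.73 (adjusted p = 0.105, edgeR). FN3KRP, named after its values were seen, passed with DESeq2 (adjusted p = 0.00877). Without GLO1, the list summed to 339 and 335 CPM in Ctrl libraries 1 and 2 and 354 and 322 CPM in PRMT3-KD libraries 1 and 2, which overlap.

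Of the 11 aldo-keto reductases tested, 2 passed the threshold as lower, AKR1A1 and AKR1B10, where 5.97% of all genes did. The list had 10 genes below 0, against 49.5% of all genes, and a median of -0.42, against 0.0055. KCNAB1, KCNAB2 and KCNAB3, at -0.01, -0.25 and -0.77, are among the 10 and encode potassium channel subunits. Some of the 10 lie close to 0 or have low counts. At an unadjusted p under 0.05 there were 4 of the 11 (edgeR, 37.6% of all genes). AKR1B10, a reductase of retinal and lipid aldehydes, had counts of 147 and 163 in Ctrl against 35 and 50 in PRMT3-KD libraries 1 and 2, with no overlap. It fell from a mean of 5.62 ± 0.439 CPM to a mean of 1.57 ± 0.270 CPM (SD, n = 2 each), and the log2 fold change came to -1.83 with a standard error of 0.222 and an adjusted p of 0.0200 (edgeR). Its near copy AKR1B15 had between 5 and 17 counts, so the split of reads between them is uncertain. AKR7A2, which reduces succinic semialdehyde, had an adjusted p of 0.0403 (edgeR) at a log2 fold change of -0.40, under 1.5-fold. AKR1B1 was the most abundant member.

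Of the 14 aldehyde dehydrogenases tested, 2 passed as lower and 1 as higher, where 5.97% and 4.97% of all genes did, with a median of -0.13. DESeq2 passed 5 of the 14, against 13.9% of all genes. ALDH9A1, which oxidises aminobutyraldehyde, had 35.0 and 35.3 CPM in Ctrl and 16.2 and 12.7 CPM in PRMT3-KD libraries 1 and 2, and the log2 fold change came to -1.28 with a standard error of 0.146 and an adjusted p of 0.0192 (edgeR). ALDH18A1, the proline synthesis enzyme and the most abundant of the list, had 163 and 164 CPM in Ctrl and 98.4 and 109 CPM in PRMT3-KD, and the log2 fold change came to -0.66 with a standard error of 0.0829 and an adjusted p of 0.0203 (edgeR). ALDH18A1 makes glutamate semialdehyde and is not a detoxification enzyme. ALDH5A1, which oxidises succinic semialdehyde, rose from 8.63 and 8.18 CPM to 14.6 and 14.9 CPM, and the log2 fold change came to 0.81 with a standard error of 0.114 and an adjusted p of 0.0231 (edgeR). For these 3 genes the PRMT3-KD libraries lay on the same side of both Ctrl libraries. They differed from each other, library 2 minus library 1 on the log2 scale, by -0.352 for ALDH9A1, 0.147 for ALDH18A1 and 0.0354 for ALDH5A1. ALDH1A3, a retinal dehydrogenase that marks mesenchymal glioma cells, had 42.3 and 40.2 CPM in Ctrl and 92.5 and 38.1 CPM in PRMT3-KD libraries 1 and 2, so the PRMT3-KD libraries lay on opposite sides of Ctrl. It did not pass (adjusted p = 0.328, edgeR).

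**Figure D4:**
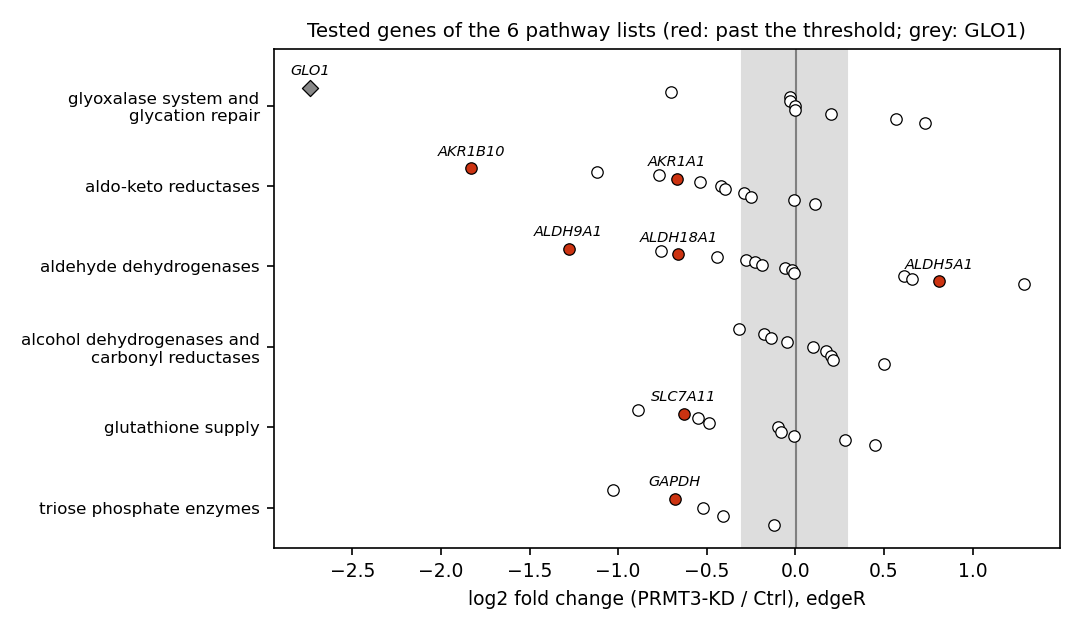
Each point is a tested gene of one of the 6 lists, placed by its log2 fold change between PRMT3-KD and Ctrl, with genes past the threshold in red, GLO1 in grey and the band between the quartiles of all genes tested (-0.299 to 0.288) shaded. Besides GLO1, the genes past the threshold are AKR1B10, AKR1A1, ALDH9A1, ALDH18A1, SLC7A11 and GAPDH as lower and ALDH5A1 as higher.

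Of the 9 alcohol dehydrogenases and carbonyl reductases tested, 0 passed the threshold with edgeR or DESeq2, with 2 at an unadjusted p under 0.05 (edgeR, 37.6% of all genes) and a median of 0.10. The most abundant, ADH5, which oxidises the glutathione adduct of formaldehyde, had 103.7 and 97.6 CPM in Ctrl and 90.1 and 93.1 CPM in PRMT3-KD, a log2 fold change of -0.14 (adjusted p = 0.259, edgeR).

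Glutathione is the cofactor of the glyoxalase pathway, and of the 9 listed genes of its supply and breakdown 1 passed as lower (5.97% of all genes), with a median of -0.10. Those of breakdown are CHAC1, CHAC2 and GGT1, at 0.28, -0.49 and -0.89, and none of them passed. SLC7A11, the cystine importer and the most abundant of the list, fell from 287 and 285 CPM to 204 and 166 CPM, and the log2 fold change came to -0.63 with a standard error of 0.120 and an adjusted p of 0.0376 (edgeR). Its adjusted p was 0.0566 with library totals in place of TMM factors, and without PRMT3-KD library 2 the change of -0.49 was under 1.5-fold. GCLM, the modifier subunit of glutamate cysteine ligase, had a log2 fold change of -0.55 (adjusted p = 0.0223, edgeR), under 1.5-fold. GCLC, the catalytic subunit of the same enzyme, was at 0.45 (adjusted p = 0.0675, edgeR) and did not pass. SLC3A2, the partner chain of SLC7A11, had 297 CPM in PRMT3-KD library 1 and 122 CPM in library 2, on opposite sides of its Ctrl values of 216 and 207 CPM.

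Of the 5 tested enzymes that make or use triose phosphates, the source of methylglyoxal, 1 passed as lower (5.97% of all genes) and all 5 were below 0 (49.5% of all genes), with a median of -0.52. GAPDH, the most abundant of them, had 4033 and 4086 CPM in Ctrl and 2284 and 2787 CPM in PRMT3-KD libraries 1 and 2. Its log2 fold change came to -0.68 with a standard error of 0.119 and an adjusted p of 0.0326 (edgeR), and without PRMT3-KD library 1 the change of -0.54 was under 1.5-fold. GAPDH has many annotated pseudogenes, which were not counted here, and reads may be shared with them. TPI1, triose phosphate isomerase, was at -0.41 (adjusted p = 0.0302, edgeR) and GPD1L at -0.52 (adjusted p = 0.0414, edgeR), both under 1.5-fold. The aldolase ALDOA was at -0.12 (adjusted p = 0.279, edgeR). ALDOC, with only 7 to 20 counts per library, was at -1.03 (adjusted p = 0.149, edgeR).

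The sequence CAGCTCA was also counted in the 3' UTRs of the list genes past the threshold. The sequence and these genes were both chosen by the same fold changes, so the counts are no independent evidence. Of the 6 lower genes besides GLO1, 2 have a copy, where 17.5% of the tested genes with a 3' UTR of at least 50 bases do. These are ALDH9A1 and ALDH18A1 with 1 copy each, and AKR1A1, AKR1B10, SLC7A11 and GAPDH have 0 copies. ALDH5A1, which rose, has 2 copies in a 3' UTR of 3495 bases. A match of these letters is a description of the sequence and not a site.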

How the data were processed

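RNA was sequenced from U251 cells in 2 Ctrl and 2 PRMT3-KD libraries, and groups and library numbers came from the labels. The authors aligned reads to hg19 with TopHat and deposited whole-number counts per gene from Cufflinks, without normalization. CASAVA and DESeq2 are also in the submitters' processing notes. Tool versions, the annotation and the use of strand are not given in the sources used here. Of 15576 entries, 1 was a duplicate and was taken out, and 15560 of the 15575 identifiers matched GENCODE 44 lifted to GRCh37, which gave coordinates, transcript lengths and 3' UTRs. Strand, pseudogenes and exon overlaps were read from the same annotation. Pseudogenes were found by name only, as the symbol of the gene followed by P and any digits.

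The differential expression analysis used edgeR 4.0.16 under R 4.3.3, with its filterByExpr function (minimum count 10, minimum total 15), TMM factors and the quasi-likelihood functions glmQLFit and glmQLFTest. The Benjamini-Hochberg adjustment covered all 13172 genes that passed this filter. Each standard error is the log2 fold change divided by the square root of its F statistic, and SDs are over 2 libraries. Total counts of 24804250 to 29756313 per library set the precision, which is lowest for genes with low counts. Counting errors given for differences between libraries cover counting only. Python 3.11.15 with pandas 2.3.3 searched the 3' UTRs, and matplotlib 3.10.9 drew the plots. The steps were tested on counts simulated with the same spread in both groups, unlike the libraries here, so that test covers the code and not the calls in these data.

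The members and lists were chosen with earlier results of these data known. The genes named are the 7 members, every list gene past the threshold, the most abundant gene of each list, PRMT3, the 5 genes most like GLO1, its neighbours in the order of log2 fold changes and the cell type markers. BTBD9, SAYSD1, FAHD1, AKR1B15, FN3KRP, FN3K, AKR7A2, KCNAB1, KCNAB2, KCNAB3, ALDH1A3, GCLM, GCLC, SLC3A2, CHAC1, CHAC2, GGT1, TPI1, GPD1L, ALDOA and ALDOC were named after their values were seen. Alternatives were DESeq2 1.42.0, limma-voom (limma 3.58.1) with group weights, other scalings and filters, no fold threshold, the replicate number as a block, and leaving out each library in turn.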

Additional observations from a re-analysis of the deposited data

How the results depend on the processing

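Against 1441 genes past the threshold, other tests, scalings and filters gave 1275 (library totals only) to 1834 (DESeq2) genes, with 2278 without a fold threshold and 0 to 3066 with 1 library left out, where the lone library of a group is assumed to vary like those of the other group. Without Ctrl library 1 and Ctrl library 2, 0 genes passed (edgeR), with 1842 and 1868 at an unadjusted p under 0.05 and 1834 by DESeq2 on all libraries. With library totals only, 40.9% of the genes past the threshold were higher, against 45.5%. GLO1 lay between -2.775 and -2.738 on the log2 scale, and between -3.035 and -2.497 with 1 library left out. With 1 library left out, HAGH lay between 0.346 and 0.769, PARK7 between -0.0371 and 0.0379, AKR1A1 between -0.794 and -0.561, AKR1B1 between -0.898 and -0.256, and ALDH2 between -0.101 and 0.0638, with 0 to 3 of the 6 genes besides GLO1 past the threshold. PARK7 reversed to -0.0274 with library totals and to -0.00139 with at least 10 counts in every library, both within its error. List genes past the threshold, GLO1 aside, numbered 1 in the glyoxalase list with DESeq2, limma-voom or the replicate block (0 to 2 with 1 library left out), 5 aldehyde dehydrogenases with DESeq2 or limma-voom (0 to 6), 0 glutathione genes with library totals and 2 without a fold threshold (0 to 3), 3 triose phosphate genes without a fold threshold (0 to 2) and 0 to 4 aldo-keto reductases. The cause was not tested. The labels do not say whether libraries of the same number belong together. The differences between libraries 1 and 2 of the groups had a correlation of 0.0379 across genes over 2 pairs. The Ctrl difference was close to counting error, so this correlation cannot show whether the numbers mark a pairing. With the replicate number as a block, 1464 genes passed, 1274 of them among the 1441.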
